A study of Mus musculus with 6 samples.

Results

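The genes described here lie on a stretch of mouse chromosome 14, from the start of Rcbtb1 at 59201209 to the end of Slc39a14 at 70351425 (GRCm38, a length of 11.2 Mb). RNA of these genes was lower in 1 of 6 clones of induced pluripotent stem cells (iPSCs) from mouse, Tet1 knockout replicate 2. The bounds were drawn around genes that read lower in that clone, so its values against the other 5 clones chose the stretch and are given as a description, without a test. Of 203 annotated genes within the bounds, 73 had no count in any library, 51 had a total of 1 to 99 counts, and 79 had 100 or more. These 79 are the genes of the stretch in what follows, out of 48440 genes in the deposited count table and 14664 that passed a filter on low counts, and all 79 passed that filter. No gene was left out for a symbol starting with Nduf or Cox.

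The clones were 3 Tet1 knockouts, labelled wt/wt;GFP/wt with Tet1 Cas9 mut/mut, and 3 non-targeted clones, labelled wt/wt;GFP/wt. All 6 came from the male iPSC line iPSC34.3, whose strain label gives the allele B6- Tet1tm1Kohx and the transgene B6;CBA-Tg(Pou5f1-EGFP)2Mnn/J. The transgene places a green fluorescent protein under a Pou5f1 promoter. The growth protocol, worded alike for both groups, names 14 passages before delivery of Cas9 protein with a guide against Tet1 and a donor oligonucleotide, 12 h in a compound that enhances homology-directed repair, 4 passages after colonies were picked, and expansion on mouse embryonic fibroblast feeders that were then removed. Each library is 1 clone, so a value found in only 1 library has no replicate of that clone. All 6 libraries carry the same sequencing batch label.

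A clonal line is grown from a single cell, so its cells share the chromosomes and the heritable chromatin state of that founder. Genes next to each other on a mammalian chromosome usually have unrelated functions. The genes here range from subunits of RNA-processing complexes to mitotic regulators, metabolic enzymes, receptors and neurofilaments. Pluripotent mouse cells are known for strong use of Tdh, the mitochondrial threonine dehydrogenase, and for little use of lineage factors such as Gata4. DNA copy number and DNA methylation of the stretch were not analysed here.

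Of the 79 genes, 36 lie on the plus strand and 43 on the minus strand, and 74 are annotated as protein-coding, 3 as lincRNA, 1 as processed transcript and 1 as sense-overlapping. A RefSeq promoter (250 bases before the gene start and 50 after, GRCm38.p6) was matched by symbol for 21 of them. The promoters of Rcbtb1, Cab39l and Tnfrsf19 are printed 5′ to 3′ on the gene's strand, because they belong to the first gene of the stretch, to 1 side of a head-to-head gene pair, and to a gene that was not lower in knockout replicate 2. Capitals mark the GC box, GGGCGG, wherever it stands on either strand. They also mark, on either strand, the CCAAT box. Rcbtb1, chr14:59200978-59201277 on the plus strand, holds 2 GC boxes and 74.3% G or C. Cab39l, chr14:59440713-59441012 on the plus strand, holds 2 CCAAT boxes and 70% G or C. Tnfrsf19, chr14:61046806-61047105 on the minus strand, holds neither and 51% G or C.
Rcbtb1: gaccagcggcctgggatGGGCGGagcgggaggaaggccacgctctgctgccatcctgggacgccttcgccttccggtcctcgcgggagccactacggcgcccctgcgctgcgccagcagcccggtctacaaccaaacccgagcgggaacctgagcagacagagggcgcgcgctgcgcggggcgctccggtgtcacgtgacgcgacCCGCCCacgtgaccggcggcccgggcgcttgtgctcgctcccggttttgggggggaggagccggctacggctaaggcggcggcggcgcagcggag
Cab39l: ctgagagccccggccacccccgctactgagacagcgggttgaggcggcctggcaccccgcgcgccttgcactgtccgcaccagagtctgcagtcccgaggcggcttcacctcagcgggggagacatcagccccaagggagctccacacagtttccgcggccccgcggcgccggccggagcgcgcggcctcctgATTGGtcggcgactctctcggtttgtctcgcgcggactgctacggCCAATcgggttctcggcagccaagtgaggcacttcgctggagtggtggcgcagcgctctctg
Tnfrsf19: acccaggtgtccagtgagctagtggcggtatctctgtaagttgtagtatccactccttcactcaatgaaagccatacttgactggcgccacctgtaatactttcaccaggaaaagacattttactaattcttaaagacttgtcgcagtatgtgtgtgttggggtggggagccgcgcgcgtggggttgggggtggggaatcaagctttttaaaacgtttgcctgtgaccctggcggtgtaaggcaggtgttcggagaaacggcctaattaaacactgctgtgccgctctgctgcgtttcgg

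Over the 21 matched promoters, the GC box GGGCGG was found on either strand in 10 (47.6%), against 35.7% of 32851 mouse promoters of the same length. The CCAAT box was found in 8 (38.1%), against 37.4% of all promoters, and the TATA box TATAAA in 2 (9.52%), against 13.6%. A GC box and a CCAAT box can share bases where they abut, and each motif was searched on its own. A match describes these windows only.

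Total counts were 11937909 in knockout replicate 2, 13070992 and 13672879 in knockout replicates 1 and 3, and 12564763 to 16189554 in the non-targeted clones. The genes of the stretch took 0.201% of counts in knockout replicate 2, 0.384% and 0.344% in knockout replicates 1 and 3, and 0.385% to 0.392% in the non-targeted clones. Tet1, the targeted gene, was at 231 CPM in knockout replicate 2, at 365 and 287 CPM in knockout replicates 1 and 3, and at 1156, 965 and 1032 CPM across the non-targeted clones, so each knockout library was below each non-targeted one. CPM here are read counts scaled to a common library size after trimmed-mean normalization, and they are not corrected for gene length, so they compare clones and not genes. Pou5f1, a defining pluripotency factor, was at 691 CPM in knockout replicate 2 and at 673 to 847 CPM in the other 5 clones. In bulk RNA, fewer cells of a type and less RNA per cell cannot be told apart.

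Across the stretch, knockout replicate 2 stood below the other clones. The summed level of the 79 genes was 1981 CPM in knockout replicate 2, 3839 and 3372 CPM in knockout replicates 1 and 3, and 3958, 3880 and 3976 CPM across the non-targeted clones. Gene by gene, the difference between log2 CPM in knockout replicate 2 and the mean log2 CPM of the other 5 clones had a median of -0.97, a ratio of 0.511, with an interquartile range of -1.15 to -0.74 and a full range of -2.88 to 0.82. The difference was negative for 74 genes and positive for 5. Knockout replicate 2 was below every one of the other 5 clones for 63 of the 79 genes (79.7%), beside 14.9% of all 14664 genes, and above every one for 2, beside 15.1%. The rule used this contrast, so these counts describe the choice of genes. The median over all genes was 0.01. The 51 genes with fewer counts summed to 6.28 CPM in knockout replicate 2, against 10.6 to 15.1 CPM in the other 5 clones.

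**Figure D1:**
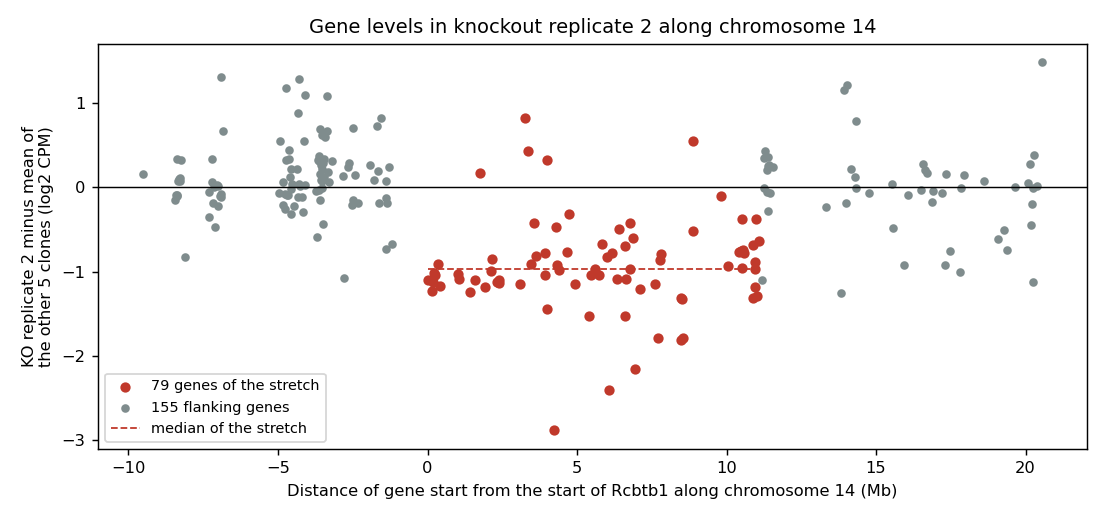
Difference between log2 CPM in knockout (KO) replicate 2 and the mean of the other 5 clones (vertical axis) against the distance of each gene's start from the start of Rcbtb1 in Mb (horizontal axis). Each point is a gene with 100 or more counts, in red within the stretch and grey within 10 Mb of it on either side. The red points centre on the dashed median of -0.97 along the whole stretch, and the medians of the grey points are 0.07 before it and -0.01 after it.

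The difference was of like size along the stretch. Counted from the start of Rcbtb1, the median was -1.10 over the 13 genes of the first 2 Mb, -0.91 over 15 genes from 2 to 4 Mb, -0.96 over 13 genes from 4 to 6 Mb, -1.03 over 16 genes from 6 to 8 Mb and -0.83 over the 22 genes beyond. Across the 79 genes, Spearman's rho of the difference was 0.13 with position, -0.02 with gene length and -0.14 with mean level, given as descriptions of genes measured in the same libraries. Genes with few counts scattered more. Among the 26 genes with a mean of 43.9 to 260 CPM over all 6 libraries the median was -1.04 with an SD of 0.349, and 25 of them were below every other clone. Among the 27 genes with a mean of 1.36 to 10.6 CPM over the same libraries the median was -0.88 with an SD of 0.816. Of these 27 genes, 17 were below every other clone. Both counts use the contrast that chose the genes, and the shares of all genes at like levels are not given here.

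At each bound, the nearest gene outside was also low in knockout replicate 2 and the next one was not. Inside the first end, Rcbtb1, which encodes a protein with RCC1 and BTB domains, was at -1.10. The neighbours Phf11d and Phf11c were at -1.23 and -1.12, with 14 counts of Phf11c in knockout replicate 2. For Phf11d, knockout replicate 3 was lower still, at 2.73 CPM beside 5.285 CPM in knockout replicate 2. Phf11d and Phf11c belong to a family of similar copies, and reads shared among such copies were not counted, so their values are uncertain. Outside it, the nearest genes with enough counts were 3110083C13Rik at -0.67 (11 counts in knockout replicate 2), Micu2, a regulator of the mitochondrial calcium uniporter, at 0.24 (187 counts in knockout replicate 2), and Zdhhc20, a palmitoyltransferase, at -0.18. More than 1 Mb without a gene of 100 counts separates Rcbtb1 from 3110083C13Rik. Inside the far end, Slc39a14, a transporter of zinc, iron and manganese, was at -0.64. Ppp3cc, a catalytic subunit of calcineurin, was at -1.29 (11 counts in knockout replicate 2). Sorbs3, an adhesion adaptor, was at -0.38, with 3.30 CPM in knockout replicate 2 and 2.98 CPM in non-targeted replicate 1. Just beyond, Piwil2, a PIWI protein known from the germ line, was at -1.10, with 19.9 CPM in knockout replicate 2, 45.5 and 21.6 CPM in knockout replicates 1 and 3, and 55.0, 45.7 and 58.1 CPM across the non-targeted clones. Knockout replicates 2 and 3 were thus both low for Piwil2. The next gene, Polr3d, a subunit of RNA polymerase III, was at -0.01, with 83.8 CPM in knockout replicate 2 and 76.8 to 89.7 CPM in the other 5 clones, and Phyhip was at 0.35.

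The 10 genes of the stretch with the highest mean CPM in the other clones are described first. Kpna3, an importin that carries proteins into the nucleus, was at 136 CPM in knockout replicate 2, 260 and 225 CPM in knockout replicates 1 and 3, and 258, 261 and 228 CPM across the non-targeted clones. Nupl1, a nucleoporin, was at 62.4 CPM in knockout replicate 2, 143 and 115 CPM in knockout replicates 1 and 3, and 134, 128 and 121 CPM across the non-targeted clones. For both genes the other 5 clones overlapped each other and knockout replicate 2 lay apart below them. Elp3, the catalytic subunit of the Elongator complex that modifies transfer RNA, was at 86.0 CPM in knockout replicate 2, 173 and 163 CPM in knockout replicates 1 and 3, and 186, 191 and 202 CPM across the non-targeted clones. Ints6, a subunit of the RNA-processing complex Integrator, was at 69.9 CPM in knockout replicate 2, 134 and 112 CPM in knockout replicates 1 and 3, and 138, 140 and 135 CPM across the non-targeted clones. Ppp2r2a, a regulatory subunit of protein phosphatase 2A, was at 99.7 CPM in knockout replicate 2, 173 and 174 CPM in knockout replicates 1 and 3, and 169, 182 and 161 CPM across the non-targeted clones. Knockout replicate 2 was again alone at the low end for these 3 genes. For Elp3 and Ints6, knockout replicates 1 and 3 were also below every non-targeted clone, by less. Slc39a14 too had knockout replicate 2 alone at the low end, at 158 CPM beside 226 to 261 CPM in the other 5 clones. Esco2, which acetylates cohesin during DNA replication, was at 52.5 CPM in knockout replicate 2, 164 and 93.4 CPM in knockout replicates 1 and 3, and 191, 175 and 157 CPM across the non-targeted clones. Dock5, an activator of the small GTPase Rac, was at 36.1 CPM in knockout replicate 2, 133 and 87.9 CPM in knockout replicates 1 and 3, and 142, 126 and 147 CPM across the non-targeted clones. For Esco2 and Dock5, knockout replicate 3 lay between knockout replicate 2 and the remaining 4 clones. Ctsb, the lysosomal protease cathepsin B, was at 65.7 CPM in knockout replicate 2, 112 and 168 CPM in knockout replicates 1 and 3, and 90.6, 101 and 106 CPM across the non-targeted clones, so knockout replicate 3 was the highest there and knockout replicate 2 the lowest.

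**Figure D2:**
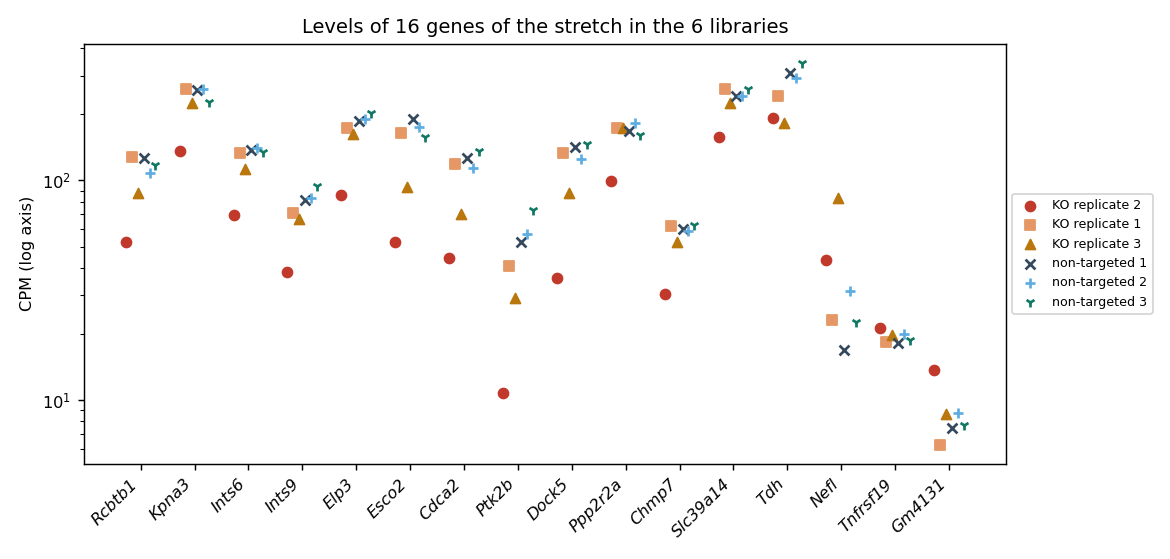
Levels of 16 genes of the stretch in CPM on a log axis (vertical axis), with 1 marker for each of the 6 libraries, the last 4 shown as exceptions (horizontal axis). Knockout (KO) replicate 2, the red circle, is alone below the other 5 clones from Rcbtb1 to Slc39a14. It lies within or above them for Tdh, Nefl, Tnfrsf19 and Gm4131.

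Tdh, with the highest mean CPM of the stretch in the other clones, did not follow the same pattern. It was at 193 CPM in knockout replicate 2, 241 and 183 CPM in knockout replicates 1 and 3, and 307, 294 and 342 CPM across the non-targeted clones, a difference of -0.47. All 3 knockout clones were below all 3 non-targeted clones, and knockout replicate 3 was the lowest.

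The genes were also grouped by hand under broad roles, with some genes in more than 1 group. Knockout replicate 2 was below every other clone for 79.7% of the 79 genes and 14.9% of all genes tested. The rule used this contrast, so the counts per group describe the choice of genes and nothing is read from them. Of 12 genes placed under cell division and the cell cycle, all 12 were below every other clone in knockout replicate 2. Their median was -1.11. That group is loose and also holds, for example, Trim13, a ubiquitin ligase of the endoplasmic reticulum. Cdca2, which directs protein phosphatase 1 to mitotic chromosomes, was at 44.3 CPM in knockout replicate 2, 119 and 70.4 CPM in knockout replicates 1 and 3, and 126, 114 and 136 CPM across the non-targeted clones. Of 19 genes of transcription, chromatin and nuclear transport, 16 were below every other clone, with a median of -1.03. Setdb2, a histone H3 lysine methyltransferase, was at -1.02. Of 15 genes of metabolism and mitochondria, 12 were below every other clone, with a median of -0.93. Fdft1, the squalene synthase of sterol synthesis, was at 55.1 CPM in knockout replicate 2 and 103 to 118 CPM in the other 5 clones, a ratio of 0.487 with a 95% counting interval of 0.449 to 0.527 that covers counting error only. Of 14 signalling genes, 11 were below every other clone, with a median of -0.82, of 10 matrix, membrane and trafficking genes, 8, with a median of -0.96, and of 8 neuronal genes, 6, with a median of -1.06.

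5 pairs of head-to-head neighbours, with starts 96 to 611 bases apart on opposite strands, could be compared within a pair. Setdb2 and Cab39l, a scaffold of the LKB1 kinase complex whose promoter is printed above, start 97 bases apart and were at -1.02 and -1.04. Cdca2 and Kctd9 start 96 bases apart and were at -1.31 and -1.32. Hmbox1, a telomere-binding homeobox protein, and Ints9, another Integrator subunit, start 174 bases apart and were at -0.96 and -1.04. Where 1 gene of the pair was a weakly expressed transcript, the values differed more, with Ints6 at -0.91 beside 4931440J10Rik at -0.42 and Chmp7 at -0.95 beside 4930480K23Rik at -0.37.

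8 genes were below -1.5. Among those with at least 5 CPM in the other clones, Fam167a was at -2.88, with 7 counts in knockout replicate 2, a ratio of 0.106 and a counting interval of 0.0425 to 0.221. Fam167a was at 0.578 CPM in knockout replicate 2, 3.37 and 4.81 CPM in knockout replicates 1 and 3, and 5.32, 7.04 and 6.25 CPM across the non-targeted clones. Ptk2b, a focal-adhesion kinase also called Pyk2, was at 10.7 CPM in knockout replicate 2, 40.6 and 29.0 CPM in knockout replicates 1 and 3, and 52.2, 57.1 and 73.5 CPM across the non-targeted clones, a difference of -2.15. For both genes all 3 knockout clones were below all 3 non-targeted clones, with knockout replicate 2 the lowest. Pnma2, of a gene family derived from retrotransposons, was at 3.30 CPM in knockout replicate 2 and 9.57 to 13.8 CPM in the other 5 clones. Neil2, a DNA glycosylase of base excision repair, was at 2.48 CPM in knockout replicate 2 and 4.66 to 9.65 CPM in the other 5 clones, a difference of -1.45.

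The 5 genes with a positive difference were Gm4131, Nefl, Fam124a, Gata4 and Tnfrsf19. Gm4131 was at 13.7 CPM in knockout replicate 2, 6.28 and 8.61 CPM in knockout replicates 1 and 3, and 7.49, 8.72 and 7.70 CPM across the non-targeted clones, above all of them. Tnfrsf19, a receptor of the tumour necrosis factor family, was at 21.4 CPM in knockout replicate 2, 18.4 and 19.8 CPM in knockout replicates 1 and 3, and 18.1, 19.99 and 18.9 CPM across the non-targeted clones, a narrow spread with knockout replicate 2 at its top. The neighbouring gene Mipep, a mitochondrial peptidase, was at -1.10. Nefl, the neurofilament light chain, was at 43.5 CPM in knockout replicate 2, 23.2 and 83.1 CPM in knockout replicates 1 and 3, and 16.9, 31.5 and 22.6 CPM across the non-targeted clones. Nefm, the medium chain, was at 10.7 CPM in knockout replicate 2, 9.18 and 21.5 CPM in knockout replicates 1 and 3, and 12.6, 22.3 and 15.8 CPM across the non-targeted clones. Both neurofilament genes were highest or near highest in knockout replicate 3, and knockout replicate 2 lay within the range of the other clones. Ephx2, the soluble epoxide hydrolase, also had a small difference, -0.60, with 19.4 CPM in knockout replicate 2, 30.004 and 16.5 CPM in knockout replicates 1 and 3, and 36.6, 30.6 and 39.9 CPM across the non-targeted clones.

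Gata4 and Sox7, transcription factors of primitive endoderm, were weakly expressed. Gata4 was at 2.64 CPM in knockout replicate 2, 2.53 and 4.09 CPM in knockout replicates 1 and 3, and 1.61, 1.93 and 1.1797 CPM across the non-targeted clones. Sox7 was at 1.57 CPM in knockout replicate 2, 2.14 and 1.15 CPM in knockout replicates 1 and 3, and 2.66, 2.18 and 2.15 CPM across the non-targeted clones. Knockout replicate 3 was the highest for Gata4 and the lowest for Sox7. The 10 other measured primitive endoderm markers, encoded elsewhere, had a median difference of 0.38 in knockout replicate 2, with a range of -1.30 to 0.82. Among them, 1 was below and 1 above every other clone. They summed to 1052 CPM in knockout replicate 2, 996 and 1202 CPM in knockout replicates 1 and 3, and 932 to 1021 CPM across the non-targeted clones. Their part in the values of Gata4 and Sox7 was not tested.

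Several genes of the stretch encode 1 subunit of a complex whose other subunits are encoded on other chromosomes or elsewhere on this one. Integrator, with Ints6 and Ints9 in the stretch, has 12 other measured subunits, whose differences in knockout replicate 2 had a median of 0.03 and ranged from -0.77 to 0.26, with Asun the lowest. Elongator beside Elp3 has 5 with a median of -0.04, protein phosphatase 2A beside Ppp2r2a has 12 with a median of 0.02, and cohesin and its regulators beside Esco2 have 13 with a median of -0.04. The other importins beside Kpna3 (5) had a median of 0.20, and the other ESCRT-III proteins beside Chmp7 (11), which reseal membranes, had a median of -0.02 with Chmp4c the lowest at -0.75. Rnaseh2b, a subunit of the ribonuclease H2 that removes ribonucleotides from DNA, was at 24.7 CPM in knockout replicate 2, 58.8 and 36.6 CPM in knockout replicates 1 and 3, and 63.97, 60.4 and 58.8 CPM across the non-targeted clones. Its partners Rnaseh2a and Rnaseh2c were at -0.44 and 0.59. The 13 subunits of RNA polymerase III, none in the stretch, had a median of -0.07. Of these, 4 were below every other clone, beside 14.9% of all genes tested, with Polr3gl the lowest at -0.97. These differences come from the contrast that chose the stretch and were not tested.

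**Figure D3:**
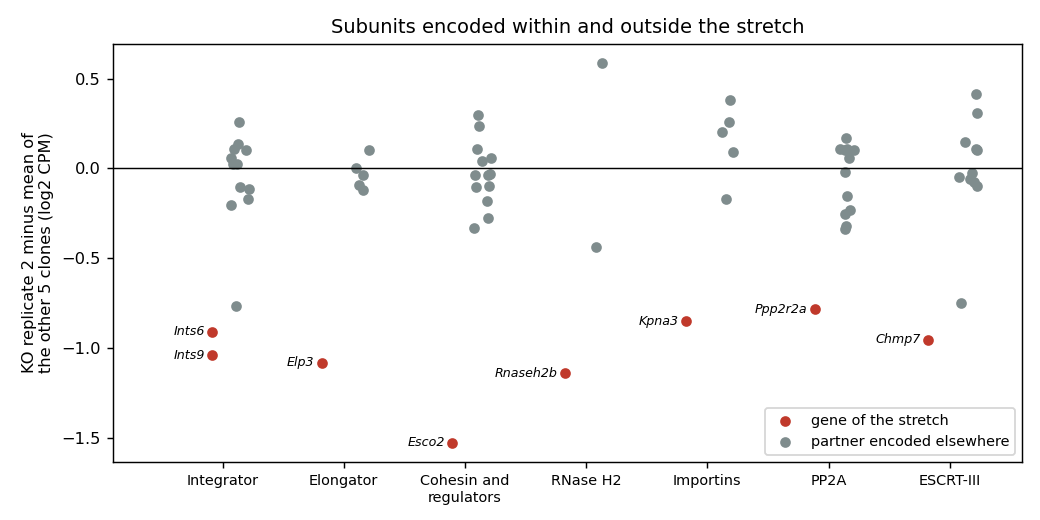
Difference between log2 CPM in knockout (KO) replicate 2 and the mean of the other 5 clones (vertical axis) for complexes with a subunit encoded in the stretch (horizontal axis). Each red point is a gene of the stretch and each grey point a partner encoded elsewhere. Every red point lies below all grey points of its own complex.

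No other clone showed a shift of this size over the stretch. The bounds were drawn around genes low in knockout replicate 2. Its distance from the other clones thus reflects that choice and was not tested. With knockout replicate 2 left out and each remaining clone set against the other 4, the median over the 79 genes was 0.04 for knockout replicate 1, -0.18 for knockout replicate 3, and 0.07, 0.06 and 0.07 for non-targeted replicates 1, 2 and 3. The SD of these 5 medians was 0.109. Knockout replicate 3 was the lowest of the 5 for 40 of the 79 genes (50.6%), and it was also the lowest for 35.2% of all genes tested. Knockout replicate 1 was the lowest for 8 (16.5% of all genes), and non-targeted replicates 1, 2 and 3 for 14, 6 and 11 (20.4%, 9.54% and 18.4% of all genes). The differences of knockout replicate 3 scattered widely over the stretch, with an SD of 0.702, and those of knockout replicate 2 had an SD of 0.571. By position, the median of knockout replicate 3 was -0.45 over the first 2 Mb and -0.13 to -0.30 over the rest.

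**Figure D4:**
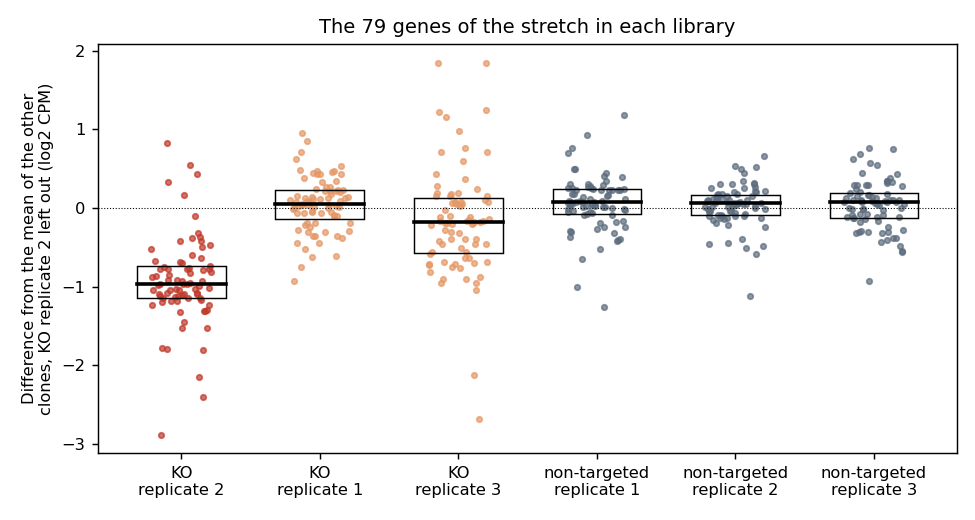
Difference in log2 CPM of each library from the mean of the other clones, with knockout (KO) replicate 2 never in that mean (vertical axis), for the 79 genes in each of the 6 libraries (horizontal axis). Each point is a gene, the thick line is the median and the box spans the interquartile range. Knockout replicate 2 has a median of -0.97, and the other 5 libraries have medians between -0.18 and 0.07.

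Markers of the cell types that the libraries could hold were read in the same contrast. Of the 14 pluripotency markers, all measured, 1 was below and 1 above every other clone in knockout replicate 2, with a median difference of -0.23 and summed levels of 4994 CPM in knockout replicate 2, 6281 and 4018 CPM in knockout replicates 1 and 3, and 6082 to 6796 CPM across the non-targeted clones. Of 30 fibroblast markers, which would mark feeder cells, 27 were measured and 1 of them was below every other clone, with a median difference of 0.26 and summed levels of 2038 CPM in knockout replicate 2, 2518 and 2601 CPM in knockout replicates 1 and 3, and 2064 to 2432 CPM across the non-targeted clones. Fn1, Vim and Sparc make up most of that sum. Without them, a choice made after their values were seen, the other 24 fibroblast markers summed to 614 CPM in knockout replicate 2, 522 and 1241 CPM in knockout replicates 1 and 3, and 305 to 436 CPM across the non-targeted clones. Knockout replicate 3 was above every other clone for 24 of the 27 markers, and the matching share of all genes is not given here. None of the measured markers was at 0 in any library. Nanog was at 283 CPM in knockout replicate 2, 470 and 112 CPM in knockout replicates 1 and 3, and 461 to 563 CPM across the non-targeted clones. The part of these markers in the values of the stretch was not tested.

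The study's comparison is knockout against non-targeted clones, and knockout replicate 2 is 1 of its 3 knockout libraries. The 79 genes were chosen with that library, which favours lower values in this comparison, so their counts and directions in it are a description and nothing is read from them. Over all 6 libraries, edgeR's quasi-likelihood test called 0 of 14664 genes (0%) at a Benjamini-Hochberg adjusted p of 0.05, and 3640 (24.8%) at an unadjusted p under 0.05, while DESeq2 called 1232 genes (8.65%). None of the 79 genes of the stretch was called by edgeR, and 14 had an unadjusted p under 0.05, of which 12 were lower, beside 10.8% of all genes lower at that p. DESeq2 called 6 of them, all lower in the knockout clones, beside 3.15% of all genes called lower and 5.5% called higher: Phf11d, Trim13, Tdh, Ephx2, Ptk2b and Ccar2. The edgeR fold changes were negative for 63 and positive for 16 of the 79 genes, with a median log2 fold change of -0.34. The smallest edgeR adjusted p in the stretch was 0.106, for Tdh, with a log2 fold change of -0.61 ± 0.12 (SE). Next were Nuggc, a nuclear GTPase, at -1.10 ± 0.27 with an edgeR adjusted p of 0.114, and Trim13, a ubiquitin ligase of the endoplasmic reticulum, at -0.72 ± 0.21 with an edgeR adjusted p of 0.127.

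Without knockout replicate 2, knockout replicates 1 and 3 could be compared with the 3 non-targeted clones in libraries that the choice of genes had used only as the comparison side. The median log2 fold change over the 79 genes was -0.08, against 0.01 over all genes, with 48 negative and 31 positive. By edgeR, 0 of 15037 genes (0%) were called and 2438 (16.2%) had an unadjusted p under 0.05. Of the 79 genes none was called by edgeR and 14 had an unadjusted p under 0.05, of which 9 were lower, beside 5.83% of all genes lower at that p, and 5 higher. DESeq2 called 306 genes (2.11%; 0.772% lower and 1.34% higher), 3 of them in the stretch. Tdh was lower in the knockout clones, with a DESeq2 log2 fold change of -0.57 ± 0.17 (SE) and an adjusted p of 0.0470. Ptk2b was lower, at -0.81 ± 0.24 with a DESeq2 adjusted p of 0.0384. Loxl2, a lysyl oxidase that cross-links collagen, was higher, at 0.96 ± 0.27 with a DESeq2 adjusted p of 0.0248. Loxl2 was at 11.9 and 16.3 CPM in knockout replicates 1 and 3, compared with 7.01, 7.16 and 7.49 CPM across the non-targeted clones, and at 5.45 CPM in knockout replicate 2, so knockout replicate 2 lay below the non-targeted clones and the other knockout clones above them. Fibroblast markers moved in the same direction as Loxl2 in this comparison, with positive edgeR log2 fold changes for 25 of 27, a median of 1.36, 0 called by edgeR and 8 called higher by DESeq2. Col1a2, a chain of type I collagen, was at 29.9 and 107 CPM in knockout replicates 1 and 3, compared with 13.7, 21.4 and 21.7 CPM across the non-targeted clones. Their part in the value of Loxl2 was not tested. In edgeR, Tdh, Ptk2b, Loxl2, Trim13 at -0.50 ± 0.12 and Ccar2 at -0.46 ± 0.12 all had an adjusted p of 0.260, the smallest of the stretch.

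**Figure D5:**
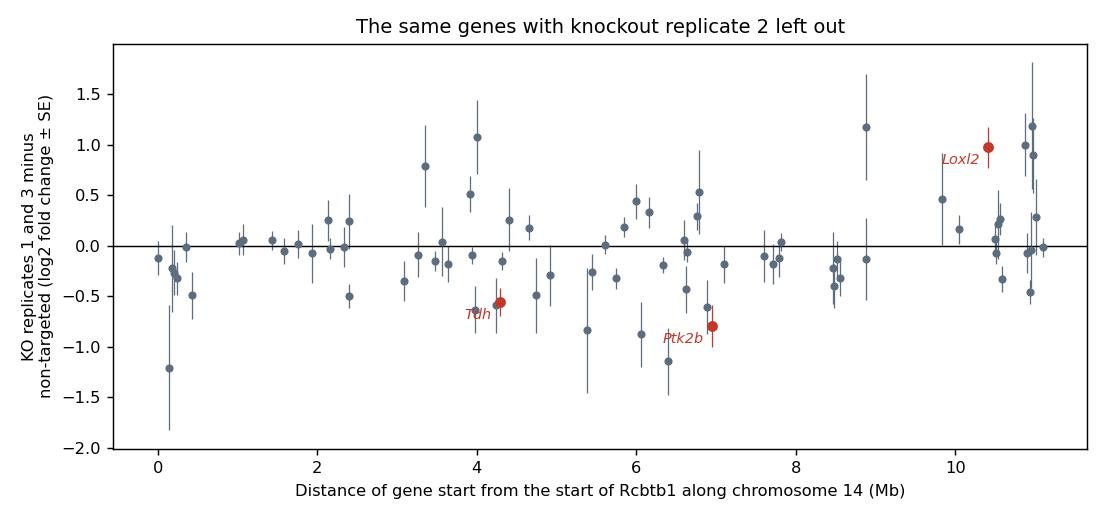
Log2 fold change of knockout (KO) replicates 1 and 3 over the 3 non-targeted clones by edgeR, with bars of 1 standard error (vertical axis), for the 79 genes against their distance from the start of Rcbtb1 in Mb (horizontal axis). Red points with names are the 3 genes called by DESeq2. The points lie on both sides of 0 along the stretch, with a median of -0.08.

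The number of genes called by edgeR depended on single libraries. DESeq2 calls are given only for all 6 libraries and for the 5 without knockout replicate 2. Without knockout replicate 1, knockout replicates 2 and 3 against the non-targeted clones gave 4404 genes called by edgeR (29.1%), among them 29 of the 79 genes, 27 lower and 2 higher. That comparison holds knockout replicate 2, so the choice of genes bears on its direction and nothing is read from it. Knockout replicate 3 alone against the non-targeted clones, assumed to vary as those do, gave 4481 genes called (28%), among them 29 of the 79, 20 lower and 9 higher. The share of genes called lower over the whole table was 14% in the first of these comparisons and 12.4% in the other.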

How the data were processed

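Polyadenylated RNA of 6 clones was sequenced with a stranded kit, per the labels' protocols. The authors deposited raw counts of reads per gene. Per the file headers, featureCounts 1.6.2 counted reads on the reverse strand over whole genes of GENCODE M15 (GRCm38.p5), introns included, with no option for reads that map to several places or overlap several genes, which therefore left these out. Per the submitters' processing notes, HISAT2 2.1.0, featureCounts 1.5.3 and DESeq2 1.18.1 were used with mm10.

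From the counts, log2 CPM was computed with TMM scaling and a prior count of 2. The difference of knockout replicate 2 is its log2 CPM minus the mean of the other 5 clones. CPM ratios carry 95% intervals from the exact binomial split of counts. Groups were tested with edgeR 4.0.16 (quasi-likelihood, filterByExpr, Benjamini-Hochberg over all genes tested, adjusted p 0.05) in R 4.3.3, with DESeq2 1.42.0 as an alternative on the deposited counts, and the code was tested on simulated data. The alternatives tried were other size factors, library totals alone, prior counts of 0.5 and 5, minimum totals of 20 and 1000, no filter, a replicate block and leaving out each clone. Replicates are separate clones, and no pair of libraries agreed within sampling noise. Promoter sequences are from RefSeq (GRCm38.p6) and biotypes from a GENCODE annotation of the same build.

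The genes of the stretch and all lists were chosen with earlier results of these data known. Genes are named by rule: the 10 with the highest mean CPM, the 6 largest and 6 smallest falls at 5 CPM or more, the 3 nearest each bound on either side, subunits of listed complexes, Gata4, Sox7, genes called and the 3 with the smallest p. Other genes of the stretch, partners in pairs and examples in groups, were named after their values were seen.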

Additional observations from a re-analysis of the deposited data

How the results depend on the processing

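The median difference of knockout replicate 2 stayed between -0.996 and -0.90 under every alternative run: other size factors, library totals alone, prior counts of 0.5 and 5, minimum totals of 20 and 1000, only knockout or only non-targeted clones as comparison, and leaving out each other clone. With a minimum total of 20, 71 of 96 genes (74%) were below every other clone, and with 1000, 45 of 51 (88.2%). These counts use the contrast that chose the stretch, and the matching shares of all genes are not given here. Leaving out each of the other 5 clones, chosen after seeing the data, gave 63 to 68 of 79. With fewer clones to be below, that count could hardly fall, so nothing is read from it. Genes with a mean under 11 CPM have the widest counting error.

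The counts of calls depended on the tool and on single clones, and the cause was not tested. Over 6 libraries, edgeR called 0 genes, against 1232 with DESeq2, 159 without the low-count filter and 0 to 4404 on leaving out 1 clone. Of the stretch it called 0, against 6 with DESeq2, 1 without the filter (Tdh) and 0 to 29 on leaving out 1 clone. Over 5 libraries, edgeR called 0 genes, against 306 with DESeq2, 1 without the filter (Tet1), 17 without knockout replicate 3, and 0 to 4481 over all clones left out. Of the stretch it called 0, against 3 with DESeq2 and 0 to 29 on leaving out 1 clone. The highest counts came without knockout replicate 1, where 5 libraries leave knockout replicate 3 alone.

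With the replicate number as a block, edgeR called 3 genes over 6 libraries (Tet1, Adgrl2 and Tenm3) and 0 over 5, none in the stretch. The deviations of same-numbered clones correlated at 0.458, 0.109 and -0.024, and 2 of 3 knockout clones correlated best with their own number. These values do not settle whether the numbers are pairs, and the main tests did not pair them. Among the recomputed values of named genes (differences of knockout replicate 2 under other size factors and library totals alone, and fold changes of genes with the smallest p or called by DESeq2 under all alternatives run for calls), none changed direction, and 14 fold changes over 6 libraries and 7 over 5 crossed the threshold they had missed.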
